A study of Mus musculus with 12 samples.

Results

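Myelin and mature oligodendrocyte genes were followed through cuprizone feeding in cells selected from white matter as astrocytes. The set was a list of 33 gene symbols, and its members were the genes of the array annotated to those symbols. Of these, 32 were measured among 19505 named genes; Enpp2 was not analysed here, and Sept4 carries the name Septin4. The rule that picks the members reads gene names alone, though the list was drawn up with earlier results of these arrays known.

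4 groups of C57BL/6 mice were compared, with 3 arrays each and 12 arrays in all. Wild-type mice received powdered diet with 0.2% (w/w) cuprizone, a copper chelator, for 0, 3 or 12 weeks, and GnT-IX-deficient mice received it for 12 weeks; feeding began at 8 to 12 weeks of age. The deficient mice lack GnT-IX, a brain glycosyltransferase encoded by Mgat5b, and every one of their arrays comes from cuprizone-fed animals, so no GnT-IX-deficient arrays at 0 weeks enter these comparisons. Cells were freed from white matter with papain and, after a block of Fc receptors, captured on anti-GLAST beads; the block is meant to keep out microglia. The sources used here do not say how the deficiency was made or whether an array holds 1 animal or several. The labels call the 3 arrays of a group independent biological replicates. Only the age at the start of feeding is given here, so feeding time and age at collection cannot be told apart.

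Oligodendrocytes wrap axons in myelin, a stack of membrane rich in galactolipids and in a small number of abundant structural proteins. Differentiation from precursor cells is driven by transcription factors such as Sox10 and Myrf, which switch on the genes of the sheath and of its lipid synthesis. Cuprizone feeding kills mature oligodendrocytes and strips myelin from white matter tracts such as the corpus callosum, with gliosis alongside, and precursor cells divide and differentiate anew. GLAST, the product of Slc1a3, is a glutamate transporter of astrocytes, so myelin transcripts in a GLAST selection are read beside markers of the other cells. In these bulk samples, fewer oligodendrocytes and less myelin RNA per cell cannot be told apart.

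The labels were checked first. Mgat5b read 3.70, 4.19 and 4.06 on the log2 scale in the GnT-IX-deficient arrays and 5.96, 5.88 and 5.57 in the wild-type arrays at 12 weeks, a log2 difference of -1.82 ± 0.21 (SE; limma, adjusted p = 0.00159). Slc1a3 read 8.84, 8.19 and 8.01 at 0 weeks, 7.0, 7.50 and 6.49 at 3 weeks, 7.24, 7.05 and 7.61 in the wild type at 12 weeks, and 7.51, 6.92 and 7.37 in the deficient mice. It was lower at 3 weeks by a log2 difference of -1.35 ± 0.27 (SE; limma, adjusted p = 0.015), and the difference of -1.05 ± 0.27 in the wild type at 12 weeks did not pass (adjusted p = 0.0545). Gfap, the intermediate filament of reactive astrocytes, rose at 3 weeks by 1.97 ± 0.46 (adjusted p = 0.0305) and at 12 weeks by 2.28 ± 0.46 (adjusted p = 0.0172). The members were bright in the GLAST-selected cells: on each array, 25 to 32 of the 32 lay above that array's upper quartile, which was 6.85 to 6.97. Brightness of different genes on this array depends on the probes, so levels are compared between groups and not between genes.

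All values below are log2 expression after RMA, 1 value per gene and array. A difference is the mean of one group minus the mean of another, with its standard error from a limma fit over all 12 arrays and all genes, and its p-value is adjusted over the 19505 genes; a gene is called at an adjusted p under 0.05. A mean is followed by its SD (n = 3).

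At 3 weeks of cuprizone the members stood close to their 0-week levels, and at 12 weeks most stood lower. The median log2 difference over the 32 members was -0.005 at 3 weeks and -0.76 at 12 weeks, where the median over all genes was -0.017 and -0.013. Of the 32, 16 were below 0 and 16 above at 3 weeks, and 30 were below 0 at 12 weeks. 1 member, Carns1, fell at 3 weeks, where 1.63% of all genes were called lower. 7 fell at 12 weeks, namely Carns1, Ppp1r14a, Fa2h, Plekhh1, Adamts4, Tppp and Mag, where 0.523% of all genes were called lower. No member was called higher at either time. Both comparisons use the same 0-week arrays, so their values are set side by side.

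**Figure D1:**
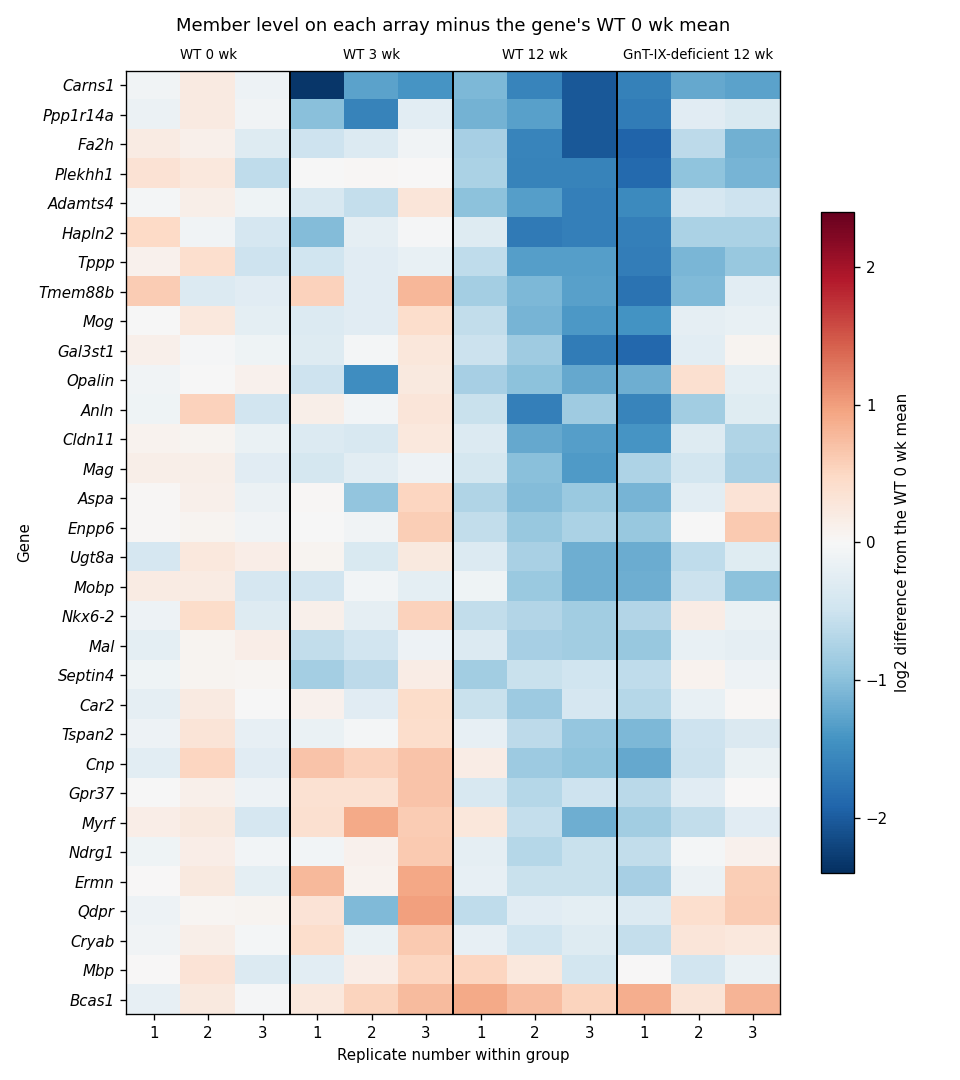
Log2 level of each of the 32 members (rows, ordered by the difference between wild type at 12 and 0 weeks) on each of the 12 arrays (columns, by group and replicate number), minus that gene's mean over the 3 wild-type arrays at 0 weeks; blue is lower and red higher. The median shift over members was -0.525, -0.878 and -1.07 on the 3 wild-type arrays at 12 weeks and -1.14, -0.292 and -0.23 on the 3 GnT-IX-deficient arrays.

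The shift was not the same on every array of a group. At 3 weeks the median shift from the 0-week mean was -0.113, -0.233 and 0.353, with replicate 3 the highest array of its group for 27 of the 32 members. At 12 weeks replicate 1 of the wild type was the highest array for 29 members and shifted least, at -0.525 against -0.878 and -1.07. In the GnT-IX-deficient mice replicate 1 was the lowest array for 29 members. Its median shift was -1.14, lower than that of any other array, and the shifts of the other 2 arrays were -0.292 and -0.23.

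Markers of other cells also differed between these groups. The mean over 15 microglia and macrophage genes was 5.78, 5.25 and 5.40 at 0 weeks, 8.86, 7.05 and 6.56 at 3 weeks, and 7.92, 8.99 and 8.10 in the wild type at 12 weeks, and 10 and 13 of the 15 were called higher at 3 and 12 weeks, beside 315 and 412 of the 19505 genes. The mean over 18 astrocyte genes was 9.66, 9.40 and 9.33 at 0 weeks, 8.48, 8.88 and 8.57 at 3 weeks, and 9.19, 8.80 and 9.30 at 12 weeks. Of the 18, 10 were called lower and 1 higher at 3 weeks, and 2 lower and 1 higher at 12 weeks. Over all 19505 genes 317 were called lower at 3 weeks and 102 at 12 weeks. The astrocyte list thus had its lowest mean at 3 weeks and the members theirs at 12 weeks, while the microglial list was above its 0-week range on every fed array. The mean over 11 endothelial genes was 5.79, 5.55 and 5.64 at 0 weeks, 6.50, 5.501 and 6.29 at 3 weeks, and 6.87, 6.42 and 6.64 at 12 weeks. None of the 11 was called at 3 weeks by limma (2 at an unadjusted p under 0.05), and 4 were called higher at 12 weeks. The median over the 11 was 0.927 at 12 weeks. For 9 of 11 all 12-week arrays lay above all 0-week arrays, where 10.8% of all genes did. Of 10 neuronal genes, 2 were called higher at 3 weeks and none at 12 weeks (1 at an unadjusted p under 0.05), and of 9 pericyte and smooth muscle genes none was called at either time (0 and 3). The part of these lists in the members' differences was not tested.

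**Figure D2:**
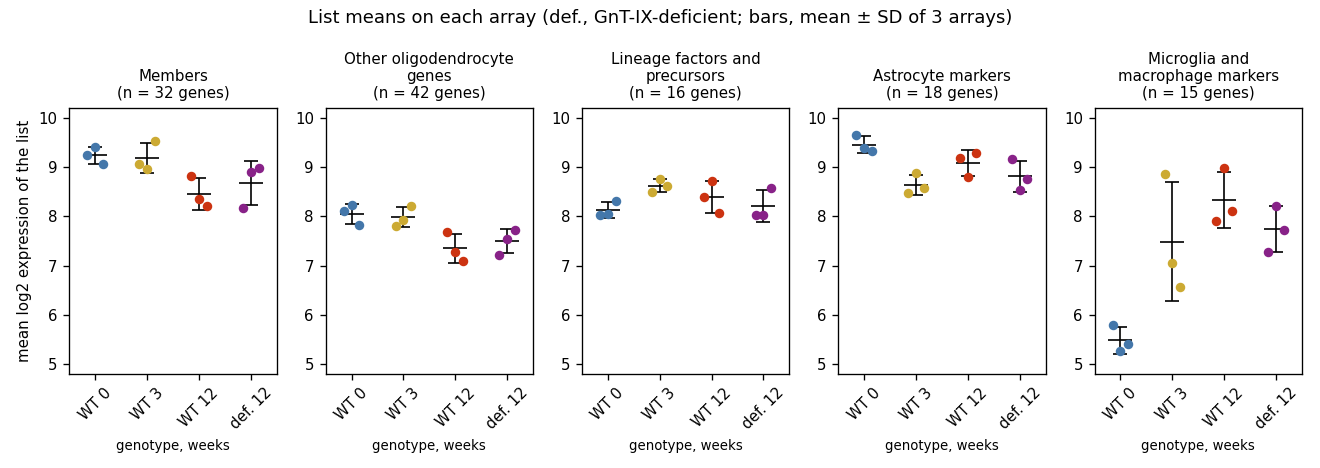
Mean log2 expression of 5 gene lists on each of the 12 arrays; dots are arrays and bars the mean and SD over 3 arrays. The members were lowest at 12 weeks, the astrocyte markers at 3 weeks, and the microglia and macrophage markers were higher on every fed array than on any 0-week array.

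The compact myelin and membrane proteins were 11 of the members. Their median difference was -0.063 at 3 weeks and -0.72 at 12 weeks, and 10 of 11 stood below 0 at 12 weeks. Mag, an adhesion molecule of the myelin surface that faces the axon, was the one called. It read 8.74, 8.74 and 8.34 at 0 weeks, 8.19, 8.36 and 8.49 at 3 weeks, and 8.19, 7.60 and 7.25 at 12 weeks. Every 12-week array lay below every 0-week array, while the 3-week arrays overlapped the 0-week range. The 12-week difference was -0.93 ± 0.22 (SE; limma, adjusted p = 0.0374), and the 3-week difference was -0.26 (adjusted p = 0.632).

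Mbp, the cytoplasmic protein that zips the myelin membrane together, read 10.01, 10.32 and 9.66 at 0 weeks, 9.74, 10.16 and 10.51 at 3 weeks, and 10.51, 10.25 and 9.55 at 12 weeks. The 3 groups overlapped throughout, with a difference of 0.14 at 3 weeks (95% interval -0.42 to 0.70) and 0.11 at 12 weeks (95% interval -0.45 to 0.66). These intervals allow a rise or a fall of up to those bounds. Beside it, Mog, a surface protein of the outermost lamella, had a 12-week difference of -1.03 ± 0.31 (adjusted p = 0.106) with all 12-week arrays below all 0-week arrays, and Cldn11, the claudin of the radial component, had -0.95 ± 0.29 (adjusted p = 0.113). Neither was called.

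Cnp, the cyclic nucleotide phosphodiesterase of the uncompacted sheath, read 9.15, 9.92 and 9.13 at 0 weeks, 10.09, 9.96 and 10.09 at 3 weeks, and 9.57, 8.53 and 8.43 at 12 weeks. All 3-week arrays lay above all 0-week arrays, with a difference of 0.65 ± 0.31 that did not pass (adjusted p = 0.329), and the 12-week difference was -0.56 (adjusted p = 0.444). The 3-week and 12-week groups did not overlap either, with a difference between them of -1.20 ± 0.31 (adjusted p = 0.137). Ermn, a cytoskeletal protein of myelinating cells, had 0.60 at 3 weeks and -0.43 at 12 weeks, and Tmem88b had 0.36 and -1.06; none of these was called. Opalin, a sialylated membrane protein of oligodendrocytes, had -0.58 at 3 weeks and -1.01 at 12 weeks. Mobp, a basic protein of compact myelin, had -0.25 and -0.72, Mal, a raft proteolipid, -0.39 and -0.65, and Tspan2, a tetraspanin, 0.07 and -0.58.

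Promoter sequence was set beside these values for every member with an entry in the RefSeq table of GRCm38.p6. Of the 32 members, 23 had one, giving 31 promoters, each 250 bases before to 50 after a gene's start; Adamts4, Bcas1, Car2, Carns1, Cryab, Fa2h, Mbp, Myrf and Ndrg1 had none. The letters searched on both strands were ACAAAG and ACAATG, a Sox-type core, and CTGGCAC and CTGGTAC, a Myrf-type core, and no match of one kind overlapped one of the other. A Sox-type match stood in 13 of 31 member promoters (41.9%) against 28.6% of 32851 promoters of the same length, and a Myrf-type match in 6 of 31 (19.4%) against 7.1%. 4 members have several promoters, some of them overlapping, so a match in overlapping windows counts more than once in these shares. By gene, 11 of the 23 members held a Sox-type match and 5 a Myrf-type match. The share by gene over all promoters was not counted. A match here is a description of these letters and not a site.

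The 4 sequences below are the 250 bases before the start, on the gene's strand, with matches in capitals. They show Cnp and 1 of the 3 Mag windows, which hold both kinds of match, Mog, which holds the Myrf-type one alone, and Plekhh1, a member called at 12 weeks with neither. Cnp is at chr11:100574689-100574938 (plus strand), Mag at chr7:30914864-30915113 (minus strand), Mog at chr17:37023399-37023648 (minus strand) and Plekhh1 at chr12:79028913-79029162 (plus strand), all in GRCm38.p6.
Cnp: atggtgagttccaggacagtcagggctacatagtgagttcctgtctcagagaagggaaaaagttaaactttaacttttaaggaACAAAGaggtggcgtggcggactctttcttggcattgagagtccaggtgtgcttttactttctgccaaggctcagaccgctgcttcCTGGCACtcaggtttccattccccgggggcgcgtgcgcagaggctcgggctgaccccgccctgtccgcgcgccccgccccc
Mag: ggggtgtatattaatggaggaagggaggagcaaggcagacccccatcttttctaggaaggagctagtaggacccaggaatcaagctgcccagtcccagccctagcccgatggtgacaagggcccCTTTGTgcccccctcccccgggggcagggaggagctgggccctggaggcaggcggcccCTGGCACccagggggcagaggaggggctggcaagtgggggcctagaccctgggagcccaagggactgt
Mog: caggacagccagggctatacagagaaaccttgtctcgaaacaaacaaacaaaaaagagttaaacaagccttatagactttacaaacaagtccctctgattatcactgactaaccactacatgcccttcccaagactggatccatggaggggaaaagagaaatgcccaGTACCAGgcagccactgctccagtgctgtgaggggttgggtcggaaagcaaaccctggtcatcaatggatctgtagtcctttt
Plekhh1: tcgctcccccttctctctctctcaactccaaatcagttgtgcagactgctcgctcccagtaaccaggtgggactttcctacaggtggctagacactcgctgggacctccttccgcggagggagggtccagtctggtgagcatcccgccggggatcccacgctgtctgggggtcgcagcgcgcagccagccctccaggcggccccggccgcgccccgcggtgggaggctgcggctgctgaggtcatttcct
Counting from -1 at the base before the start, the Sox-type match of Cnp begins at -167 and its Myrf-type match at -81. In the Mag window shown they begin at -126 and -68. A second Mag window overlaps it and holds the same matches at -67 and -9 from its own start, and the third holds neither. The Myrf-type match of Mog begins at -83. Mag was called lower at 12 weeks, as was Plekhh1 with no match in its window, while Mog and Cnp were not called. For Mag, Plekhh1 and Mog alike, all 12-week arrays lay below all 0-week arrays.

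The myelin lipid and metabolic enzymes were 8 measured members, with a median difference of -0.023 at 3 weeks and -0.825 at 12 weeks, all 8 below 0 at 12 weeks. Carns1, carnosine synthase, was the one member called at 3 weeks. It read 7.86, 8.16 and 7.84 at 0 weeks, 5.62, 6.67 and 6.54 at 3 weeks, 6.88, 6.36 and 5.91 in the wild type at 12 weeks, and 6.33, 6.72 and 6.66 in the deficient mice. All 9 arrays of cuprizone-fed mice lay below all 0-week arrays. The difference was -1.68 ± 0.27 at 3 weeks (SE; limma, adjusted p = 0.0046) and -1.57 ± 0.27 at 12 weeks (adjusted p = 0.00848). The change from 3 to 12 weeks was 0.11 (95% interval -0.48 to 0.69). The call at 3 weeks held under all 14 alternatives tried, and the call at 12 weeks under 12 of the 14.

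Fa2h, the hydroxylase that makes the 2-hydroxy fatty acids of myelin galactolipids, was called at 12 weeks and not at 3 weeks. It read 10.49, 10.42 and 9.99 at 0 weeks, 9.80, 9.97 and 10.21 at 3 weeks, and 9.50, 8.71 and 8.26 at 12 weeks. The 3-week arrays overlapped the 0-week arrays, and the 12-week arrays lay below both groups. The difference was -0.31 at 3 weeks (adjusted p = 0.707) and -1.48 ± 0.32 at 12 weeks (SE; limma, adjusted p = 0.0233), a level 2.78-fold lower. Between 12 and 3 weeks it was -1.17. None of the 8 enzymes was called by limma in that direct comparison, where their lowest adjusted p was 0.1545. The other enzymes were not called at either time. Their 12-week differences were -0.76 for Ugt8a, which makes galactosylceramide, -1.02 for Gal3st1, which sulfates it, and -0.89 for Aspa, which splits N-acetylaspartate. They were -0.76 for Enpp6, a choline phosphodiesterase, -0.60 for Car2, carbonic anhydrase, and -0.37 for Qdpr, dihydropteridine reductase. At 3 weeks these 6 ranged from -0.13 for Aspa to 0.16 for Enpp6.

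**Figure D3:**
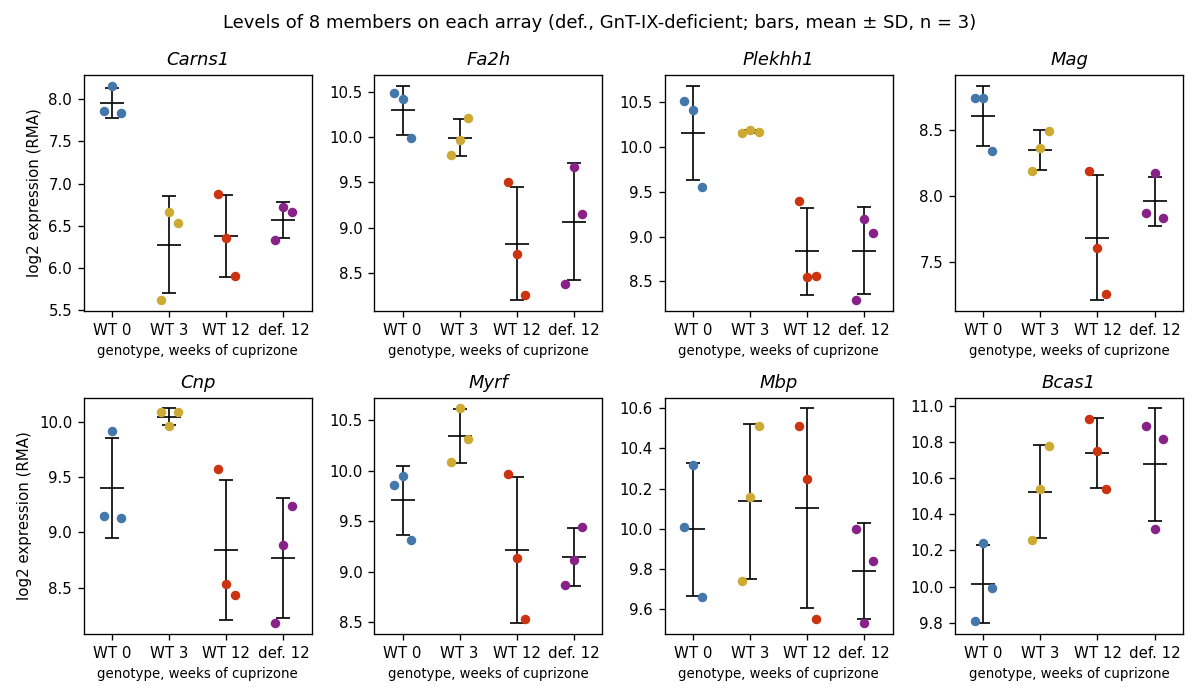
Log2 expression (RMA, vertical axis) of 8 members on each array of the 4 groups; dots are arrays and bars the mean and SD over 3 arrays. Carns1 was low on all 9 arrays of cuprizone-fed mice, Fa2h, Plekhh1 and Mag fell at 12 weeks, Mbp overlapped throughout, and Bcas1 lay above its 0-week range on all 9.

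Neither of the 2 transcription factors was called at either time. Myrf, which drives the myelin programme, read 9.86, 9.95 and 9.31 at 0 weeks, 10.09, 10.62 and 10.32 at 3 weeks, and 9.97, 9.14 and 8.53 at 12 weeks. The 3-week arrays lay above every 0-week and every 12-week array. The difference was 0.64 ± 0.30 at 3 weeks (adjusted p = 0.309), -0.49 at 12 weeks (adjusted p = 0.485) and -1.13 ± 0.30 between 12 and 3 weeks (adjusted p = 0.142), none of them called. Nkx6-2, a homeodomain factor of mature oligodendrocytes, had 0.15 at 3 weeks and -0.71 at 12 weeks.

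The 11 cytoskeletal, signalling, stress and matrix members had a median of 0.013 at 3 weeks and -1.01 at 12 weeks, and 4 of them fell at 12 weeks. Plekhh1, a pleckstrin homology and FERM domain protein, read 10.51, 10.41 and 9.55 at 0 weeks, 10.15, 10.19 and 10.17 at 3 weeks, and 9.40, 8.55 and 8.56 at 12 weeks. Its 3-week arrays lay within the 0-week range and its 12-week arrays below both. The difference at 12 weeks was -1.32 ± 0.29 (SE; limma, adjusted p = 0.0269), and that at 3 weeks was 0.01 (adjusted p = 0.989). Ppp1r14a, an inhibitor of protein phosphatase 1, read 9.42, 9.77 and 9.48 at 0 weeks, 8.56, 7.95 and 9.31 at 3 weeks, and 8.42, 8.25 and 7.52 at 12 weeks. Both fed groups lay below the 0-week arrays, with a difference of -0.95 ± 0.37 at 3 weeks that did not pass (adjusted p = 0.206) and -1.49 ± 0.37 at 12 weeks that did (adjusted p = 0.0445).

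Adamts4, a metalloproteinase of the extracellular matrix, fell at 12 weeks by 1.32 ± 0.29 on the log2 scale (adjusted p = 0.0251), from 9.38, 9.57 and 9.32 at 0 weeks to 8.44, 8.10 and 7.78. Tppp, which promotes tubulin polymerization, fell by 1.08 ± 0.26 (adjusted p = 0.0394), from 9.19, 9.48 and 8.58 to 8.48, 7.76 and 7.77. For both genes the 12-week arrays all lay below the 0-week arrays. Not called at 12 weeks were Hapln2, a link protein of nodal matrix, at -1.22, Anln, an actin and septin binding scaffold, at -1.01, Septin4, a filament protein, at -0.62, Gpr37, an orphan receptor, at -0.52, Ndrg1, a stress-responsive protein, at -0.48, and Cryab, a small heat shock protein, at -0.33.

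Bcas1, a protein of oligodendrocytes that have begun to make myelin, was higher on every fed array. It read 9.81, 10.24 and 9.99 at 0 weeks, 10.26, 10.54 and 10.78 at 3 weeks, 10.93, 10.75 and 10.54 in the wild type at 12 weeks, and 10.89, 10.32 and 10.82 in the deficient mice. The groups did not overlap with the 0-week arrays. The difference was 0.51 ± 0.20 at 3 weeks (adjusted p = 0.213) and 0.73 ± 0.20 at 12 weeks (adjusted p = 0.0751), and neither passed. It was called at 12 weeks under 1 alternative, with array weights (adjusted p = 0.0472). Bcas1 and Mbp were the 2 members with means above the 0-week mean at both times.

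Groups were also compared by whether their arrays overlapped, which uses no model. At 3 weeks, 2 members (Carns1 and Ppp1r14a) had all arrays below all 0-week arrays, where 10.5% of all genes did, and 4 (Bcas1, Cnp, Gpr37 and Myrf) had all above, where 10.8% did. Those counts are near the background. At 12 weeks 23 of 32 members had all arrays below all 0-week arrays, where 9.95% of all genes did, and 1 (Bcas1) had all above, where 10.8% did. The 8 that overlapped were Cnp, Ermn, Hapln2, Mbp, Mobp, Myrf, Tspan2 and Ugt8a.

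**Figure D4:**
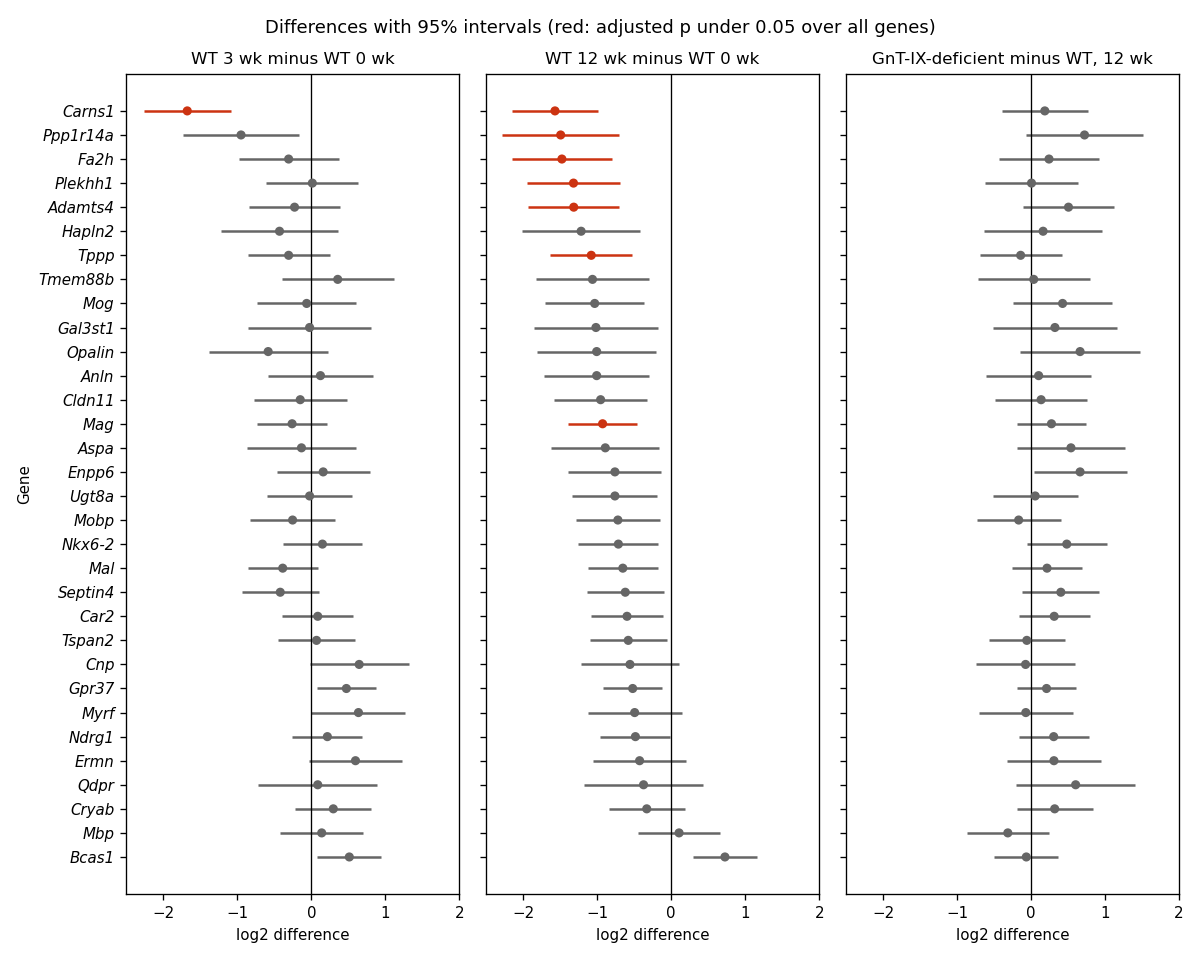
Log2 difference with its 95% interval (limma) for each of the 32 members at 3 weeks against 0 weeks, 12 weeks against 0 weeks, and GnT-IX-deficient against wild type at 12 weeks; red marks an adjusted p under 0.05. The 3 panels hold 1, 7 and 0 called members.

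The 12-week count rested on single arrays. With limma it was 0 without wild-type replicate 2 at 0 weeks (15 members at an unadjusted p under 0.05), 0 without wild-type replicate 2 at 12 weeks (18 members), and 1, Carns1, without replicate 1 at 0 weeks or replicate 3 at 12 weeks. It was 6 without replicate 3 at 0 weeks and 10 without replicate 1 at 12 weeks. Over all genes the number called lower, 102 with all arrays, was 4, 3, 7 and 41 in the first 4 of these fits and 123 and 121 in the last pair. The median over members kept its sign in each case, from -0.972 to -0.679.

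The direct comparison of 12 with 3 weeks tests whether the effect differs between the times. No member was called by limma, where 0.082% of all genes were called, and 22 of 32 had an unadjusted p under 0.05, all lower at 12 weeks, beside 2222 of the 19505 genes in either direction. The median over members was -0.765, and 30 of 32 stood lower at 12 weeks. Gpr37, at 10.61, 10.61 and 10.92 at 3 weeks and 9.86, 9.55 and 9.75 at 12 weeks, came nearest, with groups apart and a difference of -0.99 ± 0.19 (adjusted p = 0.0656). Gpr37 passed with limma's trended and robust variance, with array weights and without wild-type replicate 1 at 3 weeks. Plekhh1 had -1.33 ± 0.29 (adjusted p = 0.0874) and Tmem88b -1.42 ± 0.36 (adjusted p = 0.125). For 18 of 32 members all 12-week arrays lay below all 3-week arrays, where 8.1% of all genes did.

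In the GnT-IX-deficient mice at 12 weeks no member was called against the wild type at the same time, and most means were slightly higher. None was called by limma, where 0.0256% of all genes were called, and 1 had an unadjusted p under 0.05, beside 1363 of the 19505 genes. That unadjusted count rested on GnT-IX-deficient replicate 1: without this array it was 14 of 32, beside 1826 genes, and still none was called. It was 3 without wild-type replicate 1, 1 without wild-type replicate 3, and 0 without wild-type replicate 2 or GnT-IX-deficient replicate 2 or 3. The groups overlapped for all 32 members, where 10.8% of all genes did not overlap. The median over members was 0.23, with 25 of 32 above 0, against -0.013 over all genes. Enpp6 was the one with an unadjusted p under 0.05. It read 6.98, 7.89 and 8.53 in the deficient mice and 7.30, 6.98 and 7.13 in the wild type, with a difference of 0.66 (95% interval 0.03 to 1.29; limma, adjusted p = 0.692). Its deficient arrays ran from the lowest wild-type value to well above the highest.

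The highest differences were those of Ppp1r14a, at 0.72 (95% interval -0.07 to 1.51), and of Opalin and Enpp6, both at 0.66, and the lowest was that of Mbp, at -0.31 (95% interval -0.87 to 0.24). Fa2h read 8.38, 9.67 and 9.15 in the deficient mice, with replicate 1 within the wild-type range of 8.26 to 9.50 and replicate 2 above it. These intervals do not show that the genotypes have the same level, since a log2 difference of 1 lay inside several of them. The median was 0.458 without GnT-IX-deficient replicate 1 and 0.406 without wild-type replicate 1, and was 0.096 without wild-type replicate 3, 0.113 without GnT-IX-deficient replicate 2 and 0.098 without GnT-IX-deficient replicate 3.

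Choroid plexus and ependymal markers had higher means in the deficient group. The mean over 10 choroid plexus genes was 4.66 to 6.14 on the wild-type arrays and 8.43, 7.45 and 5.74 on the deficient arrays, highest on replicate 1, where the members were lowest. None of the 10 was called between the genotypes by limma, and 8 had an unadjusted p under 0.05. The mean over 7 ependymal genes was 6.75 to 7.54 on the wild-type arrays and 7.38, 8.54 and 8.02 on the deficient arrays, with none called and 6 at an unadjusted p under 0.05. The endothelial list had 7.04, 6.49 and 6.08, with none called between the genotypes and 1 at an unadjusted p under 0.05. The microglial list had 7.29, 8.22 and 7.72 and the astrocyte list 9.17, 8.55 and 8.75 on the deficient arrays, and neither had a gene called between the genotypes (0 and 2 at an unadjusted p under 0.05). Their part in the members' values was not tested.

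Against the 0-week wild type, where genotype and diet cannot be told apart, the deficient mice had 4 members called lower, where 1.7% of all genes were. These were Carns1 at -1.38 (adjusted p = 0.0151), Plekhh1 at -1.31 (adjusted p = 0.0243), Fa2h at -1.23 (adjusted p = 0.0429) and Tppp at -1.22 (adjusted p = 0.0206), all by limma. The comparison shares its 0-week arrays with the wild-type comparisons. Mag, called in the wild type at 12 weeks, had -0.65 (adjusted p = 0.103), with all 3 deficient arrays (7.87, 8.17 and 7.83) below all 0-week arrays. For 11 of 32 members all deficient arrays lay below all 0-week arrays, where 13.1% of all genes did. The median over members was -0.618, and it was -0.314 without GnT-IX-deficient replicate 1. The count of called members was 0 without wild-type replicate 1 or replicate 2 at 0 weeks (13 and 11 at an unadjusted p under 0.05 by limma), 2 (Carns1 and Tppp) without GnT-IX-deficient replicate 1 or replicate 3, and 1 (Fa2h) without GnT-IX-deficient replicate 2. Over all genes 331 were called lower with all arrays, and 16, 24, 446, 87 and 35 in those 5 fits in the same order.

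The deficient means lay between the wild-type 12-week and 0-week means for 24 of 32 members. The share over all genes was not counted, and the members shifted together by array, so these are not 24 separate observations. Mbp was not among the 24, with a deficient mean of 9.79 ± 0.24 (SD, n = 3) against 10.10 ± 0.50 and 10.00 ± 0.33. Plekhh1 had 8.84 ± 0.49 in the deficient mice and 8.84 ± 0.49 in the wild type at 12 weeks, against 10.16 ± 0.53 at 0 weeks. Gal3st1 was the most spread in the deficient group, with 5.25 on replicate 1 and 6.88 and 7.19 on the others. Replicate 1 was the lowest deficient array for 29 of 32 members, with a median shift of -1.14 from the 0-week mean. The deficient and wild-type arrays at 12 weeks overlapped for all 32.

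A second list of 42 measured oligodendrocyte genes that are not members had medians close to theirs. Its median was -0.14 at 3 weeks and -0.762 at 12 weeks, with all 42 below 0 at 12 weeks. None of the 42 was called at 3 weeks by limma, and 10 had an unadjusted p under 0.05, beside 3142 of the 19505 genes. At 12 weeks 6 were called lower, where 0.523% of all genes were. These were Itgb4, a laminin receptor subunit, at -1.56, Gjb1, a gap junction connexin, at -1.16, and Prr5l at -1.14. The others were S1pr5, a sphingosine 1-phosphate receptor, at -1.05, Sec14l5 at -0.92 and Gsn, an actin-severing protein, at -0.82. Not all of these 6 calls held when 1 array was left out. Over all genes only 3 were called lower without wild-type replicate 2 at 12 weeks, and 4 without wild-type replicate 2 at 0 weeks. Gjb1 was also the one gene of both oligodendrocyte lists called between 3 and 12 weeks, where 0.082% of all genes were called. It read 10.26, 9.90 and 10.62 at 3 weeks and 8.63, 8.62 and 8.45 at 12 weeks, against 9.94, 9.67 and 9.57 at 0 weeks. The 12-week arrays lay well below the others, with a difference of -1.69 ± 0.25 from 3 weeks (SE; limma, adjusted p = 0.0212). That call rested on single arrays. Without wild-type replicate 3 at 3 weeks, 0 of the 19505 genes were called in this comparison (1751 at an unadjusted p under 0.05 by limma). In the deficient mice against 0 weeks, 6 of the 42 fell, where 1.7% of all genes were called lower. Cpm had -1.72, Cntn2, an axonal and glial adhesion molecule, -1.22, and Pacs2 -1.03. Prr5l had -0.98, S1pr5 -0.89 and Sec14l5 -0.85.

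Most lineage factors and precursor genes had means above their 0-week levels in the wild type at 3 and 12 weeks. Of 16 measured, 13 were above 0 at 3 weeks, with a median of 0.67, and 12 at 12 weeks, with a median of 0.285. In the deficient mice 9 of 16 were above 0 and 7 below, with a median of 0.077. Nkx2-2, a homeodomain factor of differentiating precursors, was the one called, at 3 weeks, where 315 of the 19505 genes were called higher. It read 5.81, 5.81 and 6.20 at 0 weeks and 6.56, 6.70 and 7.15 at 3 weeks, with groups apart and a difference of 0.86 ± 0.21 (SE; limma, adjusted p = 0.0395). At 12 weeks it read 6.20, 6.12 and 5.73, with a difference from 0 weeks of 0.08 that did not pass (adjusted p = 0.918).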

How the data were processed

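Expression was measured on 12 Affymetrix arrays, 3 per group. Per the submitters' processing notes, the authors used Affymetrix Expression Console 1.4 with RMA, and deposited log2 values; RMA compresses differences of dim transcripts. Per the labels' protocols, miRNeasy or NucleoSpin RNA XS kits were used, and the sources used here do not say for which arrays, so kit and group cannot be told apart. The genome build is not given in the sources.

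Of 22206 transcript clusters, 19572 had 1 gene symbol in the platform annotation, 0 had several and 2634 were unnamed here and left out. The brightest cluster was taken for 55 genes with several, none of them members, which left 19505 genes. Array medians were 5.38 to 5.45, and arrays of a group correlated at 0.974 to 0.985. The number of arrays limits the precision: the median standard error of a member's difference was 0.29.

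Genes were tested two-sided with limma 3.58.1 (lmFit, eBayes) in R 4.3.3 over all 12 arrays, with 1 mean per group, 8 residual degrees of freedom, for 5 comparisons, and p-values were adjusted over all genes (Benjamini-Hochberg). The code was tested on simulated data. Every measured member is named, along with called genes of 2 other oligodendrocyte lists, up to 8 per comparison, and Mgat5b, Slc1a3 and Gfap. The members and lists were chosen with earlier results of these data known. Lists are described by counts and medians, with no test. Alternatives were quantile normalization, median centring, leaving out the dimmest 30% of genes, the mean of clusters, trended robust variance, array weights, the 6 arrays compared alone, a replicate block and leaving out each array.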

Additional observations from a re-analysis of the deposited data

How the results depend on the processing

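No difference of a named member changed sign where it was called. At 12 against 0 weeks, 514 genes were called and 7 members, all 7 lower. Array weights gave 919 genes and 12 members, 11 of them lower and 1, Bcas1, higher. The 6 arrays alone gave 11 members, all lower, and Mag was not among them (limma, adjusted p = 0.0597). At 12 against 3 weeks, 16 genes and 0 members were called; this became 9 genes without the dimmest 30% of genes, 30 genes and 1 member with trended robust variance, 33 genes and 1 member with array weights, and 9 genes with the 6 arrays alone. Leaving out 1 array at a time gave 192 to 643 genes at 3 weeks, 77 to 504 at 12 weeks, 0 to 146 between 12 and 3 weeks, 3 to 49 between genotypes and 98 to 1062 for GnT-IX-deficient against 0 weeks. It gave 1 to 1, 0 to 10, 0 to 1, 0 to 0 and 0 to 5 members in the same order, and member medians of -0.162 to 0.130, -0.972 to -0.679, -0.938 to -0.597, 0.096 to 0.458 and -0.748 to -0.314.

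Same-numbered arrays of different groups correlated at -0.279 to 0.216 over 18 pairs, with 6 over 0.1, and 4 of 12 arrays correlated best with their own number, so the numbers were not taken as pairs. With a replicate block, members called were 1, 5, 0, 0 and 3 and genes called 543, 442, 15, 5 and 817; Ppp1r14a and Tppp missed the threshold at 12 weeks (adjusted p = 0.0653 and 0.0621), as did Fa2h in the deficient mice against 0 weeks (adjusted p = 0.0547). The cause of these moves was not tested. With 3 arrays a group, a median standard error of 0.29 per member limits what could be called.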
